A study of Mus musculus with 6 samples.

Results

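Tumours given AZD5363+MK1775+anti-PD-1 were set against tumours given KS100+anti-PD-1. Both were pools of B16F10 tumours, a mouse melanoma line injected under the skin of 8-week-old female C57BL/6J mice. AZD5363 inhibits the kinase AKT and MK1775 inhibits the kinase WEE1. KS100 is an inhibitor of aldehyde dehydrogenases, per the series title. Both groups also received anti-PD-1, an antibody that blocks an inhibitory receptor on T cells. The same inhibitors were given with control IgG in an AZD5363+MK1775 pool and a KS100 pool, and the remaining pools were anti-PD-1 with DMSO and a control with DMSO and control IgG. Mice were treated daily until control tumours reached 2000 mm3, and RNA was extracted from the pooled tumours of each group, so each group is 1 library. The comparison asks how the tumour transcriptomes differed between the 2 inhibitor arms when both were combined with the antibody.

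Genes entered the comparison with 20 or more counts in either pool. This held for 2789 of 43629 genes, of which 2744 were protein-coding. In AZD5363+MK1775+anti-PD-1 2783 genes reached 20 counts, against 31 in KS100+anti-PD-1, with 25 in both. The first library held 338474 counts and the second 25521, so the choice of genes followed the deeper library. At the edge of the rule, 143 genes had exactly 20 counts in AZD5363+MK1775+anti-PD-1 and a median of 1 count in KS100+anti-PD-1, and 152 genes left out had 19 counts and also a median of 1. A count of 0 allowed up to 8.86 CPM (counts scaled to 1e6 per library) in AZD5363+MK1775+anti-PD-1 and up to 117.6 CPM in KS100+anti-PD-1, taking 3 counts as the limit.

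AKT passes growth factor signals to metabolism, translation and survival, and WEE1 holds back entry into mitosis. Aldehyde dehydrogenases oxidise reactive aldehydes and make retinoic acid. PD-1 blockade releases T cells, whose interferon-gamma acts on tumour cells through IRF1, among other factors, to raise MHC class I, the immunoproteasome and the guanylate-binding and immunity-related GTPases. Tumour samples taken from under the skin can also hold skeletal muscle, vessels, stroma and blood cells, and in a pool fewer cells of a type and less RNA per cell cannot be told apart.

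The libraries differed in make-up as well as depth, and the other 4 pools held 26639 to 1591673 counts. Mitochondrial and nuclear rRNA-like genes took 27.4% of counts in AZD5363+MK1775+anti-PD-1 and 3.52% in KS100+anti-PD-1. The other mitochondrial genes took 5.23% in AZD5363+MK1775+anti-PD-1 and 11.5% in KS100+anti-PD-1. The 8817 protein-coding genes at 0 counts in both pools without inhibitor took 0.360% of counts in AZD5363+MK1775+anti-PD-1 and 9.17% in KS100+anti-PD-1. Long noncoding genes other than Gm42418 took 1.52% in AZD5363+MK1775+anti-PD-1 and 15.9% in KS100+anti-PD-1. Of the genes detected, 29.3% had only 1 or 2 counts in AZD5363+MK1775+anti-PD-1, against 74.9% in KS100+anti-PD-1. Over the 2789 genes, Pearson's r of log2(CPM + 20) between the pools was 0.411, a description across genes. The part of RNA quality or library make-up in the differences below was not tested.

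With 1 library a side no test of these 2 groups alone was possible, and a rule of size was used. A gene was called where its TMM-scaled ratio, AZD5363+MK1775+anti-PD-1 over KS100+anti-PD-1, was at least 2 or at most 0.5 and its 95% exact interval lay wholly beyond 1.5-fold. These intervals cover counting error only. By this rule 392 genes were higher in AZD5363+MK1775+anti-PD-1, 14.1% of those compared, and 14 were lower, 0.502%. Against 0 counts, a gene needed 51 counts in AZD5363+MK1775+anti-PD-1 to be called higher. Of the 921 genes with that many, 392 were called, 42.6%, and this is the share that a list of well-counted genes is read against. In KS100+anti-PD-1 780 of the 2789 genes had 0 counts, 1427 had 1 to 3 and 582 had 4 or more. Among the higher genes, 164 had no count in KS100+anti-PD-1. The median log2 ratio of all genes compared was 1.57, and 0.97 with genes at 0 set to their bound. It was 0.81 over the 25 genes with 20 or more counts in both pools. The members' summed counts without rRNA-like genes were 188324 in AZD5363+MK1775+anti-PD-1 and 10912 in KS100+anti-PD-1, a scaled ratio of 2.05.

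**Figure D1:**
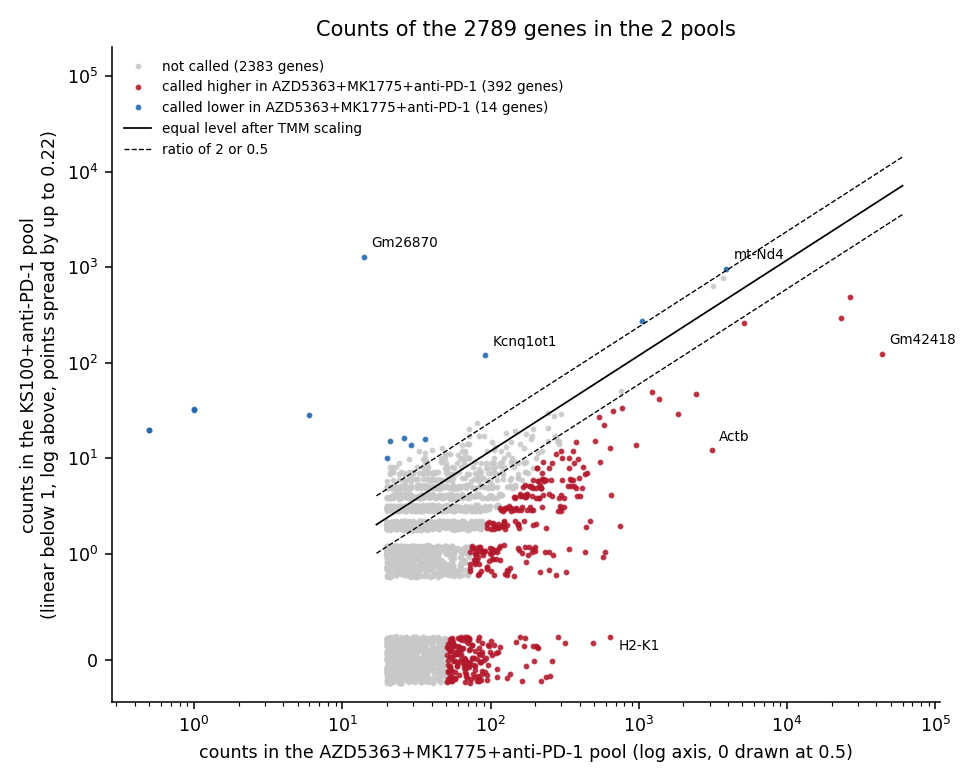
Counts of the 2789 genes in AZD5363+MK1775+anti-PD-1 (x axis, log) and KS100+anti-PD-1 (y axis, linear below 1 and log above, points spread at random by up to 0.22), coloured by the call. The 392 higher genes lie at 51 or more counts on the x axis, and the 14 lower genes lie above or to the left of the upper dashed line.

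How the counts were scaled set how many genes were called. The depth of AZD5363+MK1775+anti-PD-1 was 8.42 times that of KS100+anti-PD-1 by TMM over 6 pools, 13.3 times by library totals, 12.8 by DESeq2 size factors, 14.4 by nuclear protein-coding totals and 5.70 by TMM of the 2 pools alone. Against the first scaling these moved every log2 ratio by -0.65, -0.60, -0.78 and 0.56. Library totals gave 148 higher and 35 lower genes, DESeq2 size factors 158 and 32, nuclear protein-coding totals 117 and 41, and TMM of the 2 pools 793 and 9. The share of called genes that were higher was 96.6% in the first scaling and ran from 74.1% to 98.9% in the other 4. These shares all used the minimum of 20 counts, which 2783 genes reached in AZD5363+MK1775+anti-PD-1 and 31 in KS100+anti-PD-1. With no minimum count the first scaling gave 392 higher and 1565 lower genes, so the excess of higher genes depended on the minimum. Under all 5 scalings 117 genes were higher and 9 were lower. Of the genes named below, Iigp1, Igtp, Irf1, Tspan10, Acta1, Ckm, Myh4, Ttn, Dct, Gpnmb, Cd63, Lig1, Pabpc1, Eif2s2, Rplp1, Grn, Hspa5, Actb, Aldoa, Mgll, mt-Rnr1, mt-Rnr2, Gm26870, Kcnq1ot1, Traf5, Atr and Slc35f5 held their call under every scaling, and other genes that did so are marked where they are named.

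**Figure D2:**
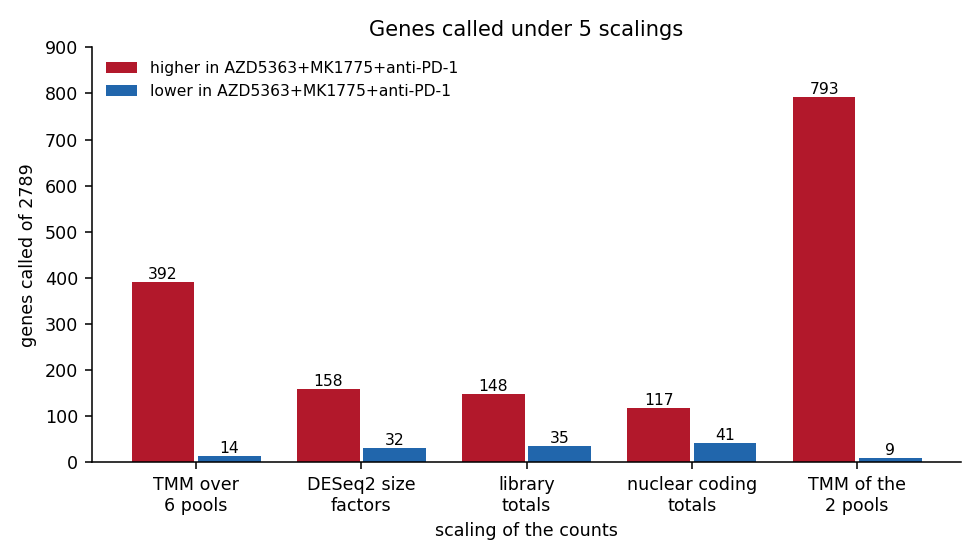
Number of genes called higher (red) and lower (blue) in AZD5363+MK1775+anti-PD-1 than in KS100+anti-PD-1, of 2789, under 5 scalings of the same counts. Bars start at 0, and higher calls run from 117 to 793 while lower calls run from 9 to 41.

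MHC class I and its peptide loading machinery stood highest among the gene lists by the ratio of summed counts. The list summed to 2473 counts in AZD5363+MK1775+anti-PD-1 and 9 in KS100+anti-PD-1, a ratio of 32.6 (95% interval 17.2 to 71.4). Of its 12 members compared, 9 were called higher, which is 9 of the 9 members with 51 or more counts, and 10 of the 12 had no count in KS100+anti-PD-1. The ratio of the sums was 19.04 with nuclear protein-coding totals. In CPM the list summed to 7306 in AZD5363+MK1775+anti-PD-1, 353 in KS100+anti-PD-1, 1914 in AZD5363+MK1775, 760 in KS100, 2506 in anti-PD-1 and 2326 in control. AZD5363+MK1775+anti-PD-1 was thus the highest of the 6 pools and KS100+anti-PD-1 the lowest.

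H2-K1, a class I heavy chain that presents peptides to CD8 T cells, had 643 counts in AZD5363+MK1775+anti-PD-1 and 0 in KS100+anti-PD-1, at least 25.4-fold higher against 3 counts. It had 3 counts in AZD5363+MK1775, 4 in KS100, 265 in anti-PD-1 and 322 in control. For genes at 0 in 1 pool, here and below, "at least" means against 3 counts in that pool. The exact interval began nearer to 1, at 20.6 for H2-K1. H2-D1, another class I heavy chain, had 284 counts in AZD5363+MK1775+anti-PD-1 and 0 in KS100+anti-PD-1, at least 11.2-fold higher, with 3, 0, 164 and 212 in AZD5363+MK1775, KS100, anti-PD-1 and control. B2m, the light chain shared by class I molecules, had 593 counts in AZD5363+MK1775+anti-PD-1 and 1 in KS100+anti-PD-1, a ratio of 70.4 (12.6 to 2785). All 3 held under every scaling, as did the chaperones Calr (204 counts against 0 in KS100+anti-PD-1) and Pdia3 (164 against 0), which help class I fold in the endoplasmic reticulum. Canx, another such chaperone, had 171 counts in AZD5363+MK1775+anti-PD-1 and 5 in KS100+anti-PD-1, a ratio of 4.06 (1.71 to 12.7), and was not called with every scaling. Tap1, which carries peptides into that compartment, had 72 counts against 0 in KS100+anti-PD-1, and the immunoproteasome subunit Psmb8 also had 72 against 0. H2 class I genes are near-identical to one another in places, so the split of counts among them is uncertain.

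The interferon-gamma response was also higher in AZD5363+MK1775+anti-PD-1. Its list summed to 1733 counts in AZD5363+MK1775+anti-PD-1 and 28 in KS100+anti-PD-1, a ratio of 7.35 (5.07 to 11.1), or 4.29 with nuclear protein-coding totals. Of 18 members compared, 7 were called higher, and 4 held under every scaling. The 7 were among 12 with 51 or more counts, beside 42.6% called of all genes with that many. None was lower, as in 29 of the 31 lists with members compared. Iigp1, an immunity-related GTPase induced by interferon, had 300 counts in AZD5363+MK1775+anti-PD-1 and 3 in KS100+anti-PD-1, a ratio of 11.9 (4.02 to 57.9). Igtp, a GTPase of the same family, had 210 counts against 0 in KS100+anti-PD-1, at least 8.31-fold higher. Gbp7, a guanylate-binding protein, had 176 counts against 4 in KS100+anti-PD-1, a ratio of 5.22 (2.004 to 19.4). In CPM the list summed to 5120 in AZD5363+MK1775+anti-PD-1, 1097 in KS100+anti-PD-1, 188 in AZD5363+MK1775, 246 in KS100, 485 in anti-PD-1 and 542 in control. Both anti-PD-1 combinations thus lay above the other 4 pools in this list, while Igtp had no count in KS100+anti-PD-1.

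Short stretches upstream of 6 of the higher genes are printed because they hold the letters that interferon-activated factors are known to bind. The 2 motifs below were searched on both strands in the 250 bases before each start site of the RefSeq table on GRCm38.p6. They were GAAANNGAA, the core of the interferon-stimulated response element bound by IRF proteins, and TTCNNNGAA, the gamma-activated site. Both can share the letters GAA. Capitals mark either motif in the 60 bases printed 5′ to 3′ on the gene's strand.
Igtp (chr11:58199496-58199555, plus strand): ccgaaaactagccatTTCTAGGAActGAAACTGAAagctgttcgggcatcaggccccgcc
Gbp7 (chr3:142530258-142530317, plus strand): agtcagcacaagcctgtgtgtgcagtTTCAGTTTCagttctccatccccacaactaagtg
Irf1 (chr11:53769898-53769957, plus strand): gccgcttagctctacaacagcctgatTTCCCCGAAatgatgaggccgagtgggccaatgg
B2m (chr2:122147522-122147581, plus strand): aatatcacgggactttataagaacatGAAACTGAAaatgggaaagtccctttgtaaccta
Psmb8 (chr17:34198072-34198131, plus strand): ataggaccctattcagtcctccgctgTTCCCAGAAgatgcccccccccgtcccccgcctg
Ctss (chr3:95526726-95526785, plus strand): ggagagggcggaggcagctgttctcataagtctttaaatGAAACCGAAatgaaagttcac
Of the 18 interferon-gamma genes compared, 14 matched a promoter, and 8 of these held GAAANNGAA (57.1%) and 7 held TTCNNNGAA. Over all 27025 genes in the table the shares with these motifs were 8.18% and 8.13%, and over the 2229 genes compared that had a promoter they were 8.21% and 6.51%. Of the 12 class I genes compared, 2 held GAAANNGAA and 1 held TTCNNNGAA. The higher class I genes H2-K1, H2-D1, Tap1, Tapbp, Calr, Canx and Pdia3 held neither motif, nor did the other start site of Irf1. A match describes the letters in these windows and no binding was measured.

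The type I interferon list was also higher in AZD5363+MK1775+anti-PD-1. It summed to 896 counts in AZD5363+MK1775+anti-PD-1 and 12 in KS100+anti-PD-1, a ratio of 8.86 (5.05 to 17.2). Of 10 members compared 3 were called higher, of the 5 with 51 or more counts, beside 42.6% of all genes with that many. Rsad2, an antiviral enzyme, had 278 counts against 1 in KS100+anti-PD-1, a ratio of 33.0 (5.88 to 1308), and Bst2, which tethers viruses to the membrane, had 131 against 1, a ratio of 15.6 (2.74 to 619). Both held under every scaling. Ifitm3, an antiviral membrane protein, had 54 counts against 1 in KS100+anti-PD-1, a ratio of 6.41 (1.10 to 258), and Trim30a had 52 against 2, a ratio of 3.09 (0.813 to 26.2), so neither was called.

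MHC class II presentation, which dendritic cells, macrophages and interferon-treated tumour cells use towards CD4 T cells, summed to 482 counts in AZD5363+MK1775+anti-PD-1 and 5 in KS100+anti-PD-1, a ratio of 11.4 (4.87 to 35.4). Of 6 members compared 4 were called higher, which were all 4 with 51 or more counts. Ctss, the protease that trims the invariant chain, had 173 counts against 1 in KS100+anti-PD-1, a ratio of 20.5 (3.64 to 816), and held under every scaling. H2-Aa had 95 counts against 2 in KS100+anti-PD-1 and H2-Eb1 had 88 against 1, with ratios of 5.64 (1.52 to 47.2) and 10.4 (1.83 to 417). H2-Ab1 had 62 counts against 0 in KS100+anti-PD-1. The 31 chemokine and cytokine genes summed to 494 counts in AZD5363+MK1775+anti-PD-1 and 23 in KS100+anti-PD-1, a ratio of 2.55 (1.68 to 4.06). With nuclear protein-coding totals it was 1.49 and its interval spanned 1. Of 3 members compared 2 were called higher, neither under every scaling. Mif had 221 counts against 7 in KS100+anti-PD-1, a ratio of 3.75 (1.79 to 9.43). Cxcl10, which attracts T cells, had 101 counts in AZD5363+MK1775+anti-PD-1 and 1 in KS100+anti-PD-1, a ratio of 12.0 (2.104 to 478). Cxcl9, of the same family, had 54 against 2 in KS100+anti-PD-1, a ratio of 3.21 (0.845 to 27.1), and was not called.

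Markers of the immune cells themselves were barely counted. The 25 T cell markers summed to 52 counts in AZD5363+MK1775+anti-PD-1 and 11 in KS100+anti-PD-1, a ratio of 0.561 (0.289 to 1.19), and none reached 20 counts. Of the 25, 9 were at 0 in AZD5363+MK1775+anti-PD-1 and 20 in KS100+anti-PD-1. In AZD5363+MK1775+anti-PD-1 the defining markers Cd3d and Cd3e had 1 and 3 counts, and Cd8a had 1. All 3 had 0 in KS100+anti-PD-1. The T cell markers with the highest mean CPM were the costimulatory receptor gene Cd27 with 7 counts in AZD5363+MK1775+anti-PD-1 and 6 in KS100+anti-PD-1, a ratio of 0.139 (0.0399 to 0.499), and the receptor chain gene Trbc1 with 2 counts in each. The T cell sum lay below 1 with its whole interval under 3 other scalings, with ratios of 0.356, 0.370 and 0.328. The 16 cytotoxic and NK cell markers summed to 30 counts in AZD5363+MK1775+anti-PD-1 and 3 in KS100+anti-PD-1, a ratio of 1.19 (0.369 to 6.08), with Ifng at 0 in both pools. The 25 macrophage markers summed to 275 counts in AZD5363+MK1775+anti-PD-1 and 14 in KS100+anti-PD-1, a ratio of 2.33 (1.37 to 4.32), and of these C1qa (82 counts against 0) and Apoe (73 against 0) were called higher. In KS100+anti-PD-1 17 of the 25 were at 0. Adgre1 and Cd68, which define macrophages, had 4 and 2 counts in AZD5363+MK1775+anti-PD-1 and 0 in KS100+anti-PD-1. The chemokine receptor gene Ccr2 had 8 counts in AZD5363+MK1775+anti-PD-1 and 4 in KS100+anti-PD-1, a ratio of 0.237 (0.0636 to 1.08), and the scavenger receptor gene Msr1 had 7 in AZD5363+MK1775+anti-PD-1 and 3 in KS100+anti-PD-1, a ratio of 0.277 (0.0632 to 1.66). With library totals the macrophage ratio was 1.48 and its interval reached below 1. In CPM the macrophage list summed to 813 in AZD5363+MK1775+anti-PD-1, 549 in KS100+anti-PD-1 and 488 to 1076 in the other 4 pools. The sums of 3 other immune lists were lower in AZD5363+MK1775+anti-PD-1 under every scaling, on few counts. B and plasma cell markers summed to 8 counts in AZD5363+MK1775+anti-PD-1 and 7 in KS100+anti-PD-1, a ratio of 0.136 (0.0430 to 0.440). Neutrophil markers summed to 3 in AZD5363+MK1775+anti-PD-1 and 4 in KS100+anti-PD-1, a ratio of 0.0890 (0.0130 to 0.526), and dendritic cell markers to 11 in AZD5363+MK1775+anti-PD-1 and 7 in KS100+anti-PD-1, a ratio of 0.187 (0.0660 to 0.568). The part of immune cell content in the interferon and MHC differences was not tested.

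**Figure D3:**
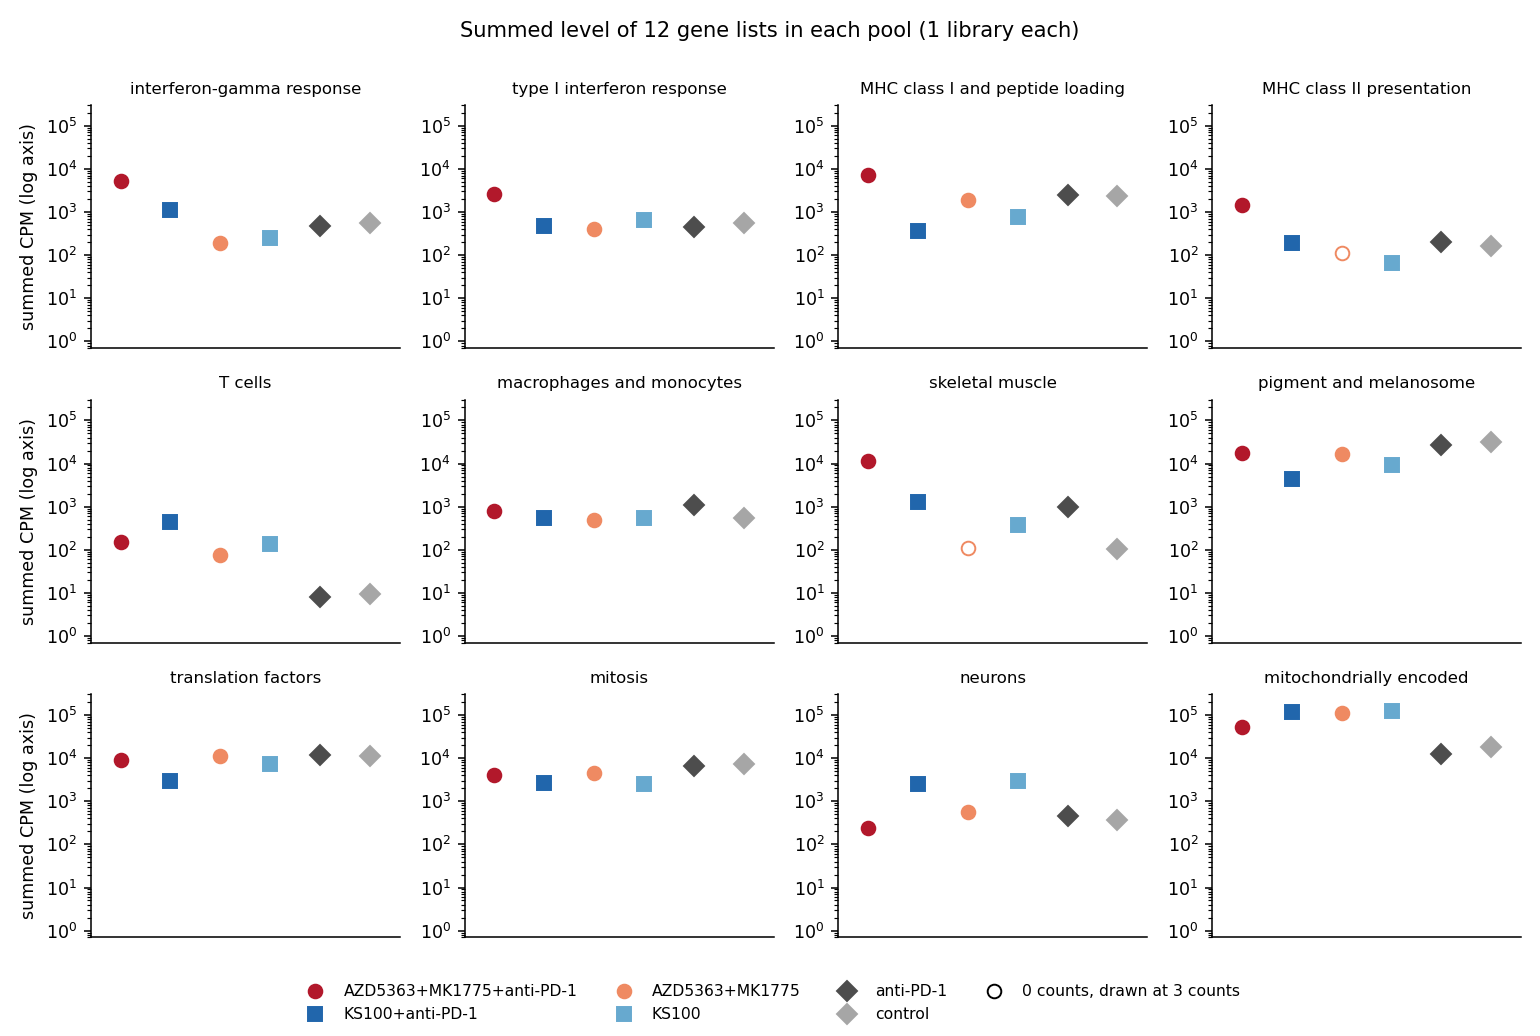
Summed CPM of 12 gene lists (log axis) in each of the 6 pools, 1 library each, with open symbols for lists at 0, drawn at the level of 3 counts. AZD5363+MK1775+anti-PD-1 (red circles) is highest in both interferon lists, both MHC lists and skeletal muscle, and KS100+anti-PD-1 (dark blue squares) is lowest in MHC class I, pigment genes and translation factors.

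Skeletal muscle genes were also higher in AZD5363+MK1775+anti-PD-1. The 20 muscle markers summed to 3828 counts in AZD5363+MK1775+anti-PD-1 and 33 in KS100+anti-PD-1, a ratio of 13.8 (9.79 to 20.03). Of 16 members compared, 13 were called higher, of the 15 with 51 or more counts, and 9 held under every scaling. In KS100+anti-PD-1 12 of the 20 markers were at 0. Acta1, the actin of the muscle thin filament, had 492 counts against 0 in KS100+anti-PD-1, at least 19.5-fold higher. Ckm, muscle creatine kinase, had 319 counts against 0 in KS100+anti-PD-1, at least 12.6-fold higher. Myh4, the myosin of fast fibres, had 430 counts against 1 in KS100+anti-PD-1, a ratio of 51.1 (9.11 to 2021), and the giant protein gene Ttn had 958 against 14, a ratio of 8.12 (4.82 to 14.9). In CPM the list summed to 11310 in AZD5363+MK1775+anti-PD-1, 1293 in KS100+anti-PD-1, 0 in AZD5363+MK1775, 380 in KS100, 990 in anti-PD-1 and 102 in control. Muscle markers are those of a tissue other than the tumour. Their part in the other differences between these pools was not tested.

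Fibroblast and matrix genes summed to 695 counts in AZD5363+MK1775+anti-PD-1 and 30 in KS100+anti-PD-1, a ratio of 2.75 (1.91 to 4.11), and of 6 compared 2 were called higher. Sparc, a matrix glycoprotein that melanoma cells also express, had 325 counts against 1 in KS100+anti-PD-1, a ratio of 38.6 (6.88 to 1528), and held under every scaling. Col1a1, the collagen that defines fibroblasts, had 28 against 6 in KS100+anti-PD-1, a ratio of 0.554 (0.225 to 1.64), and was not called. Endothelial markers summed to 103 counts in AZD5363+MK1775+anti-PD-1 and 15 in KS100+anti-PD-1, a ratio of 0.815 (0.472 to 1.51), and erythroid markers summed to 30 and 8 counts in the same pools, a ratio of 0.445 (0.199 to 1.12). Neuronal genes ran the other way, with 80 counts in AZD5363+MK1775+anti-PD-1 and 65 in KS100+anti-PD-1, a ratio of 0.146 (0.104 to 0.206). Of these, Tubb3 held 43 counts in AZD5363+MK1775+anti-PD-1 and 4 in KS100+anti-PD-1. The same list had a ratio of 0.140 (0.0760 to 0.239) for AZD5363+MK1775 over KS100 without the antibody.

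Pigment and melanosome genes, listed as markers of the tumour cells, were higher in AZD5363+MK1775+anti-PD-1 and counted in every pool. Not every member is confined to pigment cells, as with Cd63, which is also in the lysosome list. The list summed to 5961 counts in AZD5363+MK1775+anti-PD-1 and 109 in KS100+anti-PD-1, a ratio of 6.49 (5.37 to 7.92), or 3.79 with nuclear protein-coding totals. Of 21 members compared, 13 were called higher, all among the 18 with 51 or more counts, and 7 held under every scaling. Dct, an enzyme of melanin synthesis, had 2432 counts in AZD5363+MK1775+anti-PD-1 and 47 in KS100+anti-PD-1, a ratio of 6.14 (4.61 to 8.38). It had 174 counts in AZD5363+MK1775, 134 in KS100, 11518 in anti-PD-1 and 20773 in control. Gpnmb, a melanosome glycoprotein, had 412 against 5 in KS100+anti-PD-1, a ratio of 9.78 (4.16 to 30.3), and Cd63, a membrane protein of melanosomes and lysosomes, had 649 against 4, a ratio of 19.3 (7.49 to 70.9). The receptor kinase gene Met had 275 against 17 in KS100+anti-PD-1, a ratio of 1.92 (1.18 to 3.34), and was not called. In CPM the list summed to 17610 in AZD5363+MK1775+anti-PD-1, 4271 in KS100+anti-PD-1, 16890 in AZD5363+MK1775, 9319 in KS100, 26670 in anti-PD-1 and 32170 in control. Both combinations lay below both pools without inhibitor, with KS100+anti-PD-1 the lowest of the 6.

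The genes that the drugs act on were mostly too low to compare. Akt1, the main AKT kinase gene in many tissues, had 112 counts in AZD5363+MK1775+anti-PD-1 and 0 in KS100+anti-PD-1, at least 4.43-fold higher, and held under every scaling. In AZD5363+MK1775+anti-PD-1 Akt2 had 7 counts, Wee1 1, Pdcd1, which encodes PD-1, 1, and Cd274, which encodes its ligand PD-L1, 19. In KS100+anti-PD-1 Cd274 had 1 count and the other 3 had 0. No aldehyde dehydrogenase gene reached 20 counts. The 19 genes of that family summed to 58 counts in AZD5363+MK1775+anti-PD-1 and 12 in KS100+anti-PD-1, a ratio of 0.574 (0.305 to 1.17). Aldh1a3, which makes retinoic acid, had 1 count against 7 in KS100+anti-PD-1, a ratio of 0.0170 (0.000376 to 0.132), and was under the minimum. In the wider list of AKT, WEE1 and FOXO genes, 6 of 10 compared were called higher, of the 7 with 51 or more counts, and the sum ratio was 4.08 (3.004 to 5.69). Ccnd2 and Ccnd1, cyclins that open the G1 phase, had 432 against 7 in KS100+anti-PD-1 and 248 against 1, with ratios of 7.33 (3.53 to 18.3) and 29.4 (5.24 to 1167). Both held under every scaling.

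**Figure D4:**
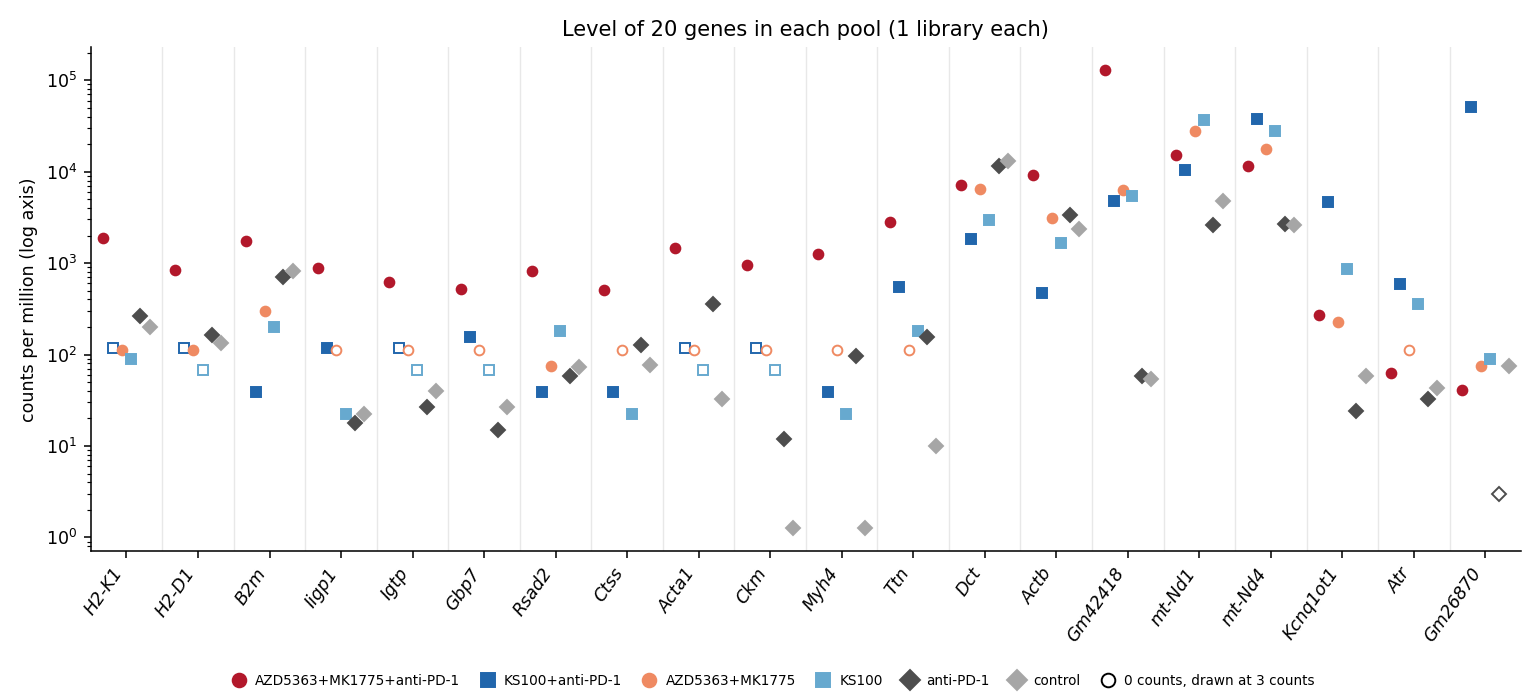
CPM of 20 genes (log axis) in each of the 6 pools, 1 library each, with open symbols for 0 counts drawn at the level of 3 counts. AZD5363+MK1775+anti-PD-1 (red circles) lies above KS100+anti-PD-1 (dark blue squares) from H2-K1 to mt-Nd1, and below it from mt-Nd4 to Gm26870.

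Mitosis genes summed to 1373 counts in AZD5363+MK1775+anti-PD-1 and 69 in KS100+anti-PD-1, a ratio of 2.36 (1.85 to 3.05). This was near the 2.05 of all genes compared without rRNA-like genes. Of 19 compared, 2 were called higher, of 7 with 51 or more counts. Top2a, the topoisomerase that untangles chromosomes, had 338 counts against 10 in KS100+anti-PD-1, a ratio of 4.01 (2.15 to 8.44). Mki67, the marker of dividing cells, had 40 against 12 in KS100+anti-PD-1, a ratio of 0.396 (0.204 to 0.829), and was not called lower. DNA replication genes had a sum ratio of 2.76 (2.05 to 3.81), and 3 of 18 were called higher, of 8 with 51 or more counts. Of these Lig1, the ligase that joins new DNA strands, had 129 against 1 in KS100+anti-PD-1, a ratio of 15.3 (2.70 to 610). Among p53 targets 1 of 4 was called higher, the cell cycle inhibitor gene Cdkn1a with 54 counts against 0 in KS100+anti-PD-1, at least 2.14-fold higher.

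Translation and protein handling lists had sum ratios above 1, and their shares of calls are read against the 42.6% of all genes with 51 or more counts. Of 22 translation factors compared 11 were called higher, of 16 with 51 or more counts, with a sum ratio of 5.00 (3.97 to 6.39). Pabpc1, which binds poly(A) tails, had 639 against 13 in KS100+anti-PD-1, a ratio of 5.83 (3.39 to 11.02), and the initiation factor subunit Eif2s2 had 364 against 5, a ratio of 8.64 (3.67 to 26.8). Of 47 cytosolic ribosomal protein genes 11 were called higher, of 35 with 51 or more counts, a share below the 42.6%. Their sum ratio was 2.23 (1.999 to 2.48), near the 2.05 of all genes compared without rRNA-like genes. Rplp1 had 1371 against 42 in KS100+anti-PD-1, a ratio of 3.88 (2.85 to 5.40), while Rps9 had 244 against 30, a ratio of 0.966 (0.659 to 1.46). Ribosomal protein genes have many processed pseudogenes and their single counts are uncertain.

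Of 25 constitutive proteasome genes 7 were called higher, of 13 with 51 or more counts (sum ratio 4.54, 3.33 to 6.35), and of 16 lysosome genes 5, of 10 with that many (7.54, 5.23 to 11.3). Both shares are near the 42.6% of all genes with that many counts. Cd63, which is also in the pigment list, made up 35.25% of the lysosome sum in AZD5363+MK1775+anti-PD-1. Grn, a lysosomal growth factor precursor, had 206 counts in AZD5363+MK1775+anti-PD-1 and 0 in KS100+anti-PD-1, at least 8.15-fold higher. The unfolded protein and integrated stress response list had 5 of 12 higher, of 7 with 51 or more counts (3.94, 2.90 to 5.49), led by the chaperone gene Hspa5 with 331 against 5 in KS100+anti-PD-1, a ratio of 7.86 (3.33 to 24.4). Atf4, the transcription factor of that response, had 64 against 6 in KS100+anti-PD-1, a ratio of 1.27 (0.551 to 3.58), and was not called. Heat shock genes had 4 of 9 higher, of 6 with that many (2.47, 2.05 to 2.996), with Hsp90ab1 at 1227 against 49 in KS100+anti-PD-1.

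Of 24 cytoskeleton genes 10 were called higher, of 14 with 51 or more counts, and the sum ratio was 9.04 (7.19 to 11.5). Actb, the cytoplasmic actin, made up most of the sum with 3093 counts against 12 in KS100+anti-PD-1, a ratio of 30.6 (17.5 to 59.3). Its CPM was 9138 in AZD5363+MK1775+anti-PD-1, 470 in KS100+anti-PD-1, 3153 in AZD5363+MK1775, 1676 in KS100, 3394 in anti-PD-1 and 2334 in control. Actb has processed pseudogenes, so its counts are uncertain. It was the highest of the 6 pools in AZD5363+MK1775+anti-PD-1 and the lowest in KS100+anti-PD-1.

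Metabolic lists had shares of calls on both sides of the 42.6% of all genes with 51 or more counts. Glycolysis genes had 3 of 10 higher, of 8 with 51 or more counts (sum ratio 3.26, 2.49 to 4.34), with the aldolase gene Aldoa at 442 against 2 in KS100+anti-PD-1, a ratio of 26.2 (7.22 to 217), and the lactate dehydrogenase gene Ldha at 300 against 29, a ratio of 1.23 (0.838 to 1.86). Nuclear respiratory chain genes had 5 higher of 13 with that many counts (sum ratio 3.81, 2.96 to 4.97), NRF2 and redox genes 4 of 8 (3.04, 2.29 to 4.14) and cholesterol synthesis genes 1 of 4 (3.76, 2.39 to 6.29). Hypoxia genes outside glycolysis had 1 of 6 higher, the transcription factor gene Hif1a with 153 against 2 in KS100+anti-PD-1, and immediate early genes had 0 of 2 called, with a sum ratio of 1.01 (0.637 to 1.70). Mgll, a lipase that releases fatty acids from monoglycerides and belongs to none of the lists, had 746 against 2 in KS100+anti-PD-1, a ratio of 44.3 with a lower bound of 12.2. It was at 2204 CPM in AZD5363+MK1775+anti-PD-1, 78.4 in KS100+anti-PD-1 and 34.9 to 131 in the other 4 pools.

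**Figure D5:**
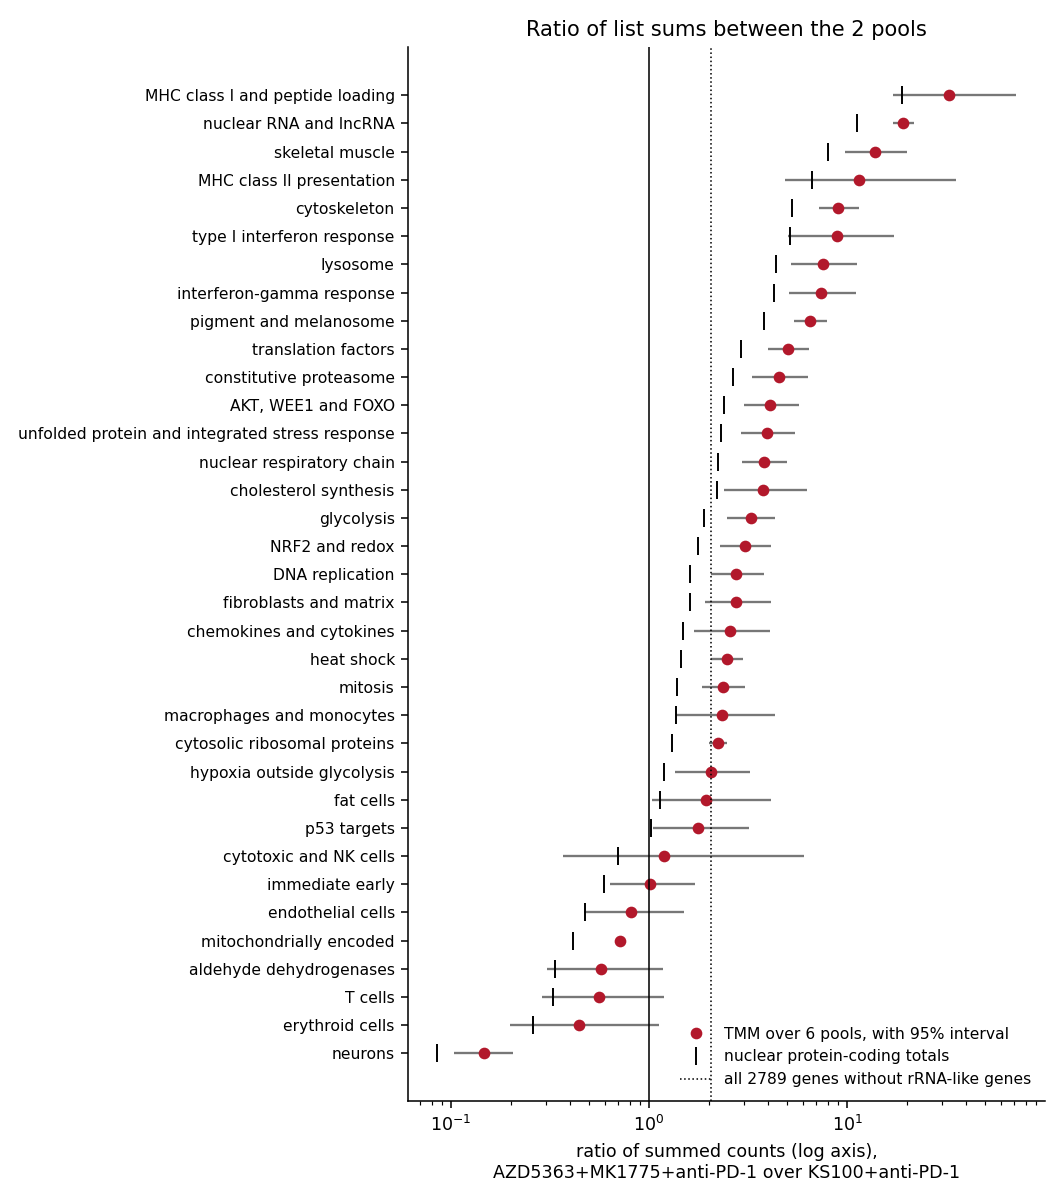
Ratio of summed counts, AZD5363+MK1775+anti-PD-1 over KS100+anti-PD-1 (log axis), for the 35 lists with 20 or more counts in the 2 pools together, with TMM scaling and 95% exact intervals (circles and lines) and with nuclear protein-coding totals (ticks). The interval lies above 1 in 27 lists, below 1 in 2 (neurons and mitochondrially encoded) and across 1 in 6, and the dotted line marks 2.05, the ratio of all 2789 genes without rRNA-like genes.

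The median log2 ratio of the members compared was 4.49 for MHC class I, 2.54 for interferon-gamma, 4.49 for skeletal muscle, 2.63 for pigment genes, 2.40 for translation factors, 1.54 for mitosis and 1.03 for ribosomal proteins, against 1.57 over all genes compared. With genes at 0 set to their bound the same medians were 1.86, 1.80, 2.94, 2.44, 1.79, 0.77 and 0.98, against 0.97. A gene with few counts in KS100+anti-PD-1 entered only through AZD5363+MK1775+anti-PD-1, so these medians describe the genes that passed the minimum.

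Mitochondrially encoded genes had calls in both directions, 2 higher and 2 lower of 6 compared. They summed to 17576 counts in AZD5363+MK1775+anti-PD-1 and 2940 in KS100+anti-PD-1, a ratio of 0.710 (0.682 to 0.738), and this ratio was 1.05 with TMM of the 2 pools. mt-Nd1 and mt-Co1, subunits of complexes I and IV, were called higher, with 5101 against 263 counts, a ratio of 2.30 (2.03 to 2.62), and 671 against 31 in KS100+anti-PD-1. mt-Nd4 and mt-Nd5, also of complex I, were called lower, with 3889 against 959 in KS100+anti-PD-1, a ratio of 0.481 (0.448 to 0.517), and 1042 against 274, a ratio of 0.451 (0.395 to 0.518). None of the 4 was called under every scaling. mt-Nd4 was at 11490 CPM in AZD5363+MK1775+anti-PD-1, 37580 in KS100+anti-PD-1, 17640 in AZD5363+MK1775, 27670 in KS100, 2692 in anti-PD-1 and 2617 in control, so all 4 inhibitor pools lay above the pools without inhibitor. The 2 mitochondrial rRNA genes were higher in AZD5363+MK1775+anti-PD-1, mt-Rnr2 with 26439 counts against 484 in KS100+anti-PD-1 and mt-Rnr1 with 22961 against 291.

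The gene with the most counts in AZD5363+MK1775+anti-PD-1 was Gm42418, a noncoding gene that overlaps ribosomal RNA sequence, with 43490 counts against 123 in KS100+anti-PD-1, a ratio of 42.0 (35.2 to 50.5). It was at 128500 CPM in AZD5363+MK1775+anti-PD-1, 4820 in KS100+anti-PD-1, 6269 in AZD5363+MK1775, 5475 in KS100, 58.9 in anti-PD-1 and 53.4 in control. The list of nuclear and long noncoding RNAs had 4 of 7 higher and 1 lower. Gm26917, of the same kind, had 577 against 1 in KS100+anti-PD-1. Malat1, an abundant nuclear RNA, had 1841 against 29 in KS100+anti-PD-1, a ratio of 7.54 (5.23 to 11.3). All 3 held under every scaling.

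With the minimum of 20 counts 14 genes were lower in AZD5363+MK1775+anti-PD-1, and 8 of the 14 were protein-coding. This number followed the minimum, since only 31 genes reached 20 counts in KS100+anti-PD-1. Without a minimum 1565 of 16125 genes were lower. Gm26870, a noncoding gene on chromosome 9 (GRCm38, bases 3000282 to 3038313), had 14 counts in AZD5363+MK1775+anti-PD-1 and 1291 in KS100+anti-PD-1, a ratio of 0.00129 (0.000702 to 0.00217). It was the most counted gene of KS100+anti-PD-1 and had 2 counts in AZD5363+MK1775, 4 in KS100, 0 in anti-PD-1 and 120 in control. Kcnq1ot1, the long antisense RNA of an imprinted region, had 92 counts against 119 in KS100+anti-PD-1, a ratio of 0.0918 (0.0691 to 0.121), and its level without the antibody was also lower, with 6 counts in AZD5363+MK1775 and 39 in KS100. Reads of an antisense gene and of its partner cannot be told apart where the strand setting is not known.

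Traf5, an adaptor of tumour necrosis factor receptors, had 0 counts in AZD5363+MK1775+anti-PD-1 and 20 in KS100+anti-PD-1, at least 56.2-fold lower against 3 counts. Atr, the checkpoint kinase gene of stalled replication forks, had 21 counts against 15 in KS100+anti-PD-1, a ratio of 0.166 (0.0817 to 0.347). It had 0 counts in AZD5363+MK1775, 16 in KS100, 33 in anti-PD-1 and 68 in control. Slc35f5 had 26 against 16 in KS100+anti-PD-1, a ratio of 0.193 (0.0996 to 0.385), and Tmem167 had 29 against 14, a ratio of 0.246 (0.126 to 0.504). The last did not hold under every scaling. The noncoding or pseudogene entries Gm29216 (1 count against 33 in KS100+anti-PD-1), Gm4117 (1 against 32), Gm37954 (0 against 20) and 4930432E11Rik (6 against 28) all held under every scaling, and each had at most 1 count in either pool without inhibitor. In the same order, their counts in AZD5363+MK1775 and KS100 were 11 and 5, 4 and 5, 0 and 0, and 0 and 2. The remaining calls were Ankrd12 (36 against 16 in KS100+anti-PD-1) and Uxs1 (20 against 10). Uxs1 makes UDP-xylose for proteoglycans. Atr, Slc35f5, Tmem167, Uxs1 and Ankrd12 had more raw counts in AZD5363+MK1775+anti-PD-1, and their ratios fell below 1 after scaling for depth.

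The antibody-free pools gave the same contrast in separate libraries. There, 240 genes had 20 or more counts in either pool, and 10 were higher in AZD5363+MK1775 than in KS100 (4.17%) and 36 lower (15.0%). Of the 392 genes higher with the antibody, 80 were compared without it, of which 2 were again higher and 4 were lower, and 41 had a ratio above 1. Of the 14 lower genes 4 were compared and all 4 were again lower. They were Kcnq1ot1, Slc35f5, mt-Nd4 and mt-Nd5. The list sums of the antibody-free pair, AZD5363+MK1775 over KS100, were 1.83 (1.16 to 2.91) for MHC class I, 0.554 (0.151 to 1.73) for interferon-gamma, 1.32 (1.15 to 1.51) for pigment genes and 1.07 (0.914 to 1.26) for translation factors. Muscle genes had 0 counts in AZD5363+MK1775 and 17 in KS100. The difference between these ratios and those with the antibody was not tested.

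A fit over all 6 pools allowed a test of AZD5363+MK1775 against KS100 over both antibodies with 2 residual degrees of freedom. In the edgeR quasi-likelihood test with Benjamini-Hochberg adjustment, 7 of 4912 genes were higher with AZD5363+MK1775 (0.143%) and 77 lower (1.57%). All 7 higher genes were among the 2789, and 3 of them belong to MHC class I or its loading, H2-D1 (adjusted p = 0.00782), Pdia3 (0.0273) and Calr (0.0490). The counts in AZD5363+MK1775+anti-PD-1 and AZD5363+MK1775 were 284 and 3 for H2-D1, 164 and 2 for Pdia3, and 204 and 5 for Calr. In KS100+anti-PD-1 and KS100 all 3 had 0, except for 1 count of Calr in KS100. Others were the interferon regulator Irf1 (0.0426), the muscle actin Acta1 (0.0101) and the pigment cell gene Tspan10 (0.00793), all 3 at 0 in both KS100 pools. Irf1 and Acta1 had no count in AZD5363+MK1775, so their calls rest on AZD5363+MK1775+anti-PD-1, with 192 and 492 counts. Of the 77 lower genes, 31 had no count in either pool without inhibitor, and Lrfn5 and Treml2 (adjusted p = 7.96e-05 and 0.000498) had 14 and 13 counts in KS100+anti-PD-1 and 0 in both AZD5363+MK1775 pools. These genes and the higher ones named here, other than H2-D1 and Acta1, were picked for this account after their values were seen.

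Of the 392 genes higher by the rule of size, 365 entered this fit, 7 passed the adjusted threshold and 66 had an unadjusted p under 0.05 in the same direction. The fit includes the 2 pools that chose these genes, so their direction in it is partly fixed and is no independent support. Of the 14 lower genes 11 entered it, and 4 passed: Gm26870 (log2 change -9.00, adjusted p = 0.00525), Gm4117 (-4.57, 0.0260), Kcnq1ot1 (-3.43, 0.0285) and Atr (-3.35, 0.0337), all in edgeR's test. The falls of Gm26870 and Gm4117 rest on KS100+anti-PD-1. Gm26870 had 2 counts in AZD5363+MK1775 and 4 in KS100, and Gm4117 had 4 and 5. Aldh1a3 was also lower with AZD5363+MK1775 in it (log2 change -6.27, adjusted p = 0.0122), with 1 count in AZD5363+MK1775+anti-PD-1 and 0 in AZD5363+MK1775, against 7 in KS100+anti-PD-1 and 3 in KS100. DESeq2 on the same model called 0 genes higher and 9 lower, with 458 of 2516 at an unadjusted p under 0.05 in either direction. No gene was called higher by edgeR without the filter on low counts either (1244 of 19725 at an unadjusted p under 0.05) or over the 4 inhibitor pools alone (52 of 398).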

How the data were processed

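The authors deposited 1 table of read counts (whole numbers) by Ensembl gene for 6 libraries, 1 per treatment. Per the labels' protocols, RNA of pooled tumours went into QuantSeq 3′ FWD libraries, read singly on a MiSeq, and the submitters' processing notes name bcl2fastq, HISAT2 2.1.0, HTSeq and GRCm38. The sources used here do not give the annotation release, the strand setting or how multi-matching reads were handled. Of 43721 rows, 92 spike-in rows held no counts. Symbols came from GENCODE M21, which held 42548 of 43629 genes.

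Ratios were scaled by TMM over 6 pools (edgeR 4.0.16, R 4.3.3), with exact conditional (Clopper-Pearson) 95% intervals (scipy 1.17.1). A ratio against 0 is a bound against 3 counts in that library. The exact interval of such a gene reached nearer to 1, as for Igtp, from 6.70 beside a bound of 8.31. Median log2 ratios used a prior count of 2. CPM is counts scaled to 1e6 per library. Reads carry no molecular identifiers, so intervals cover counting error only. The additive edgeR model had inhibitor arm and antibody as terms, filterByExpr defaults and an adjusted p under 0.05. Pools of other treatments serve as its replicates, so its p-values measure the spread between these libraries. Alternatives were 4 other scalings, other minimum counts, DESeq2 1.42.0 and other filters. Both procedures were tested on simulated data.

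Genes, lists and tests were chosen with earlier results of these data known. Named genes were the 10 higher with the highest lower bound, the 10 lower with the lowest upper bound, the 5 most counted per pool, up to 4 members of each list by mean CPM, and the drug targets. Other genes were named after their values were seen. Of 881 list symbols 874 matched. Epidermal markers (2 counts in AZD5363+MK1775+anti-PD-1 and 9 in KS100+anti-PD-1, a ratio of 0.0264, 0.00277 to 0.128) and fat cell markers (164 in AZD5363+MK1775+anti-PD-1 and 10 in KS100+anti-PD-1, a ratio of 1.95, 1.03 to 4.14) were also summed. Some genes that the rule names are not reported here.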

Additional observations from a re-analysis of the deposited data

Results flagged for a closer look

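Genes called in opposite directions in the 2 pairs of pools were singled out: higher in AZD5363+MK1775+anti-PD-1 than in KS100+anti-PD-1, and lower in AZD5363+MK1775 than in KS100. There were 4 such genes, and the difference between the pairs was not tested. mt-Rnr1 had a ratio of 9.37 (22961 counts against 291) with the antibody and 0.346 (216 against 762) without it. mt-Rnr2 had a ratio of 6.48 (26439 against 484) with it and 0.374 (379 against 1236) without it. Syt4, which encodes a vesicle protein, had a ratio of 6.28 (423 against 8) with it and 12 against 53 counts without it. Myo5a, the motor that moves melanosomes, had a ratio of 5.42 (137 against 3) with it and 3 against 24 counts without it.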

How the results depend on the processing

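The number of higher genes was 392, and 148 with library totals, 158 with DESeq2 size factors, 117 with nuclear protein-coding totals, 793 with TMM of the 2 pools, 63 with a depth-matched minimum and 627 with the interval beyond 1. The number of lower genes was 14, and 35, 32, 41, 9, 9 and 30 under the same settings, 1565 with no minimum count and 4 with a minimum of 50. Leaving out mitochondrial, ribosomal protein and rRNA-like genes gave 372 higher and 12 lower. Of the list sums, immediate early genes had a ratio of 0.592 with nuclear protein-coding totals and mitochondrially encoded genes 1.05 with TMM of the 2 pools, each with its whole interval on the other side of 1. Other sums crossed 1 with an interval that spanned it. Immediate early genes had 0.645 with library totals and 0.669 with DESeq2 size factors. Cytotoxic and NK markers had 0.754 and 0.782 under the same 2 and 0.693 with nuclear protein-coding totals. Endothelial markers had 1.205 with TMM of the 2 pools. The T cell, endothelial, erythroid and aldehyde dehydrogenase sums lay below 1 with their interval under 3 scalings, and those of macrophages, fat cells, p53 targets and hypoxia no longer lay wholly above it under the same 3. The chemokine sum lost this with nuclear protein-coding totals. The additive fit called 84 genes, 9 with DESeq2, 37 with no filter and 16 with the 4 inhibitor pools alone. The causes were not tested. No paired analysis was possible because each group has 1 library, and for the same reason no library could be left out of the pair. The KS100+anti-PD-1 depth of 25521 counts limits all of these: with TMM over 6 pools and the interval beyond 1.5-fold, genes under 51 counts in AZD5363+MK1775+anti-PD-1 could not be called higher.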
